A study of Arabidopsis thaliana with 6 samples.

Results

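Plants carry small genomes of their own in chloroplasts and mitochondria. The chloroplast genome, also called the plastid genome, encodes subunits of both photosystems, the cytochrome b6f complex, ATP synthase, the large subunit of Rubisco, and part of the organelle's ribosomes and RNA polymerase. The mitochondrial genome encodes subunits of the respiratory chain, ATP synthase and ribosomes. Most organelle introns are group II introns, which are removed with the help of nucleus-encoded proteins and not by the spliceosome, and organelle transcripts are for the most part not polyadenylated.

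The 96 genes described here are the rows of the expression table whose identifiers begin with ATCG (plastid) or ATMG (mitochondrion) and whose mean over 6 libraries was at least 1 RPKM (reads scaled to gene length and sequencing depth). They are 81 of 134 plastid rows and 15 of 162 mitochondrial rows, out of 38194 genes in all. The libraries were made from poly(A) RNA of rosette leaves of Arabidopsis thaliana at 40 days, still vegetative, grown under 8 hours of light and 16 hours of dark at 22 °C. The 3 mac3a mac3b libraries came from double mutants in MAC3A and MAC3B, a pair of genes for U-box proteins of the spliceosome-associated MOS4-associated complex, and the 3 Col-0 libraries from wild type. The study asked how the double mutant comes to flower early in short days. The labels do not say whether replicates came from separate plants, so p-values measure the spread between these libraries, which may be partly technical. In whole leaves, fewer organelles or cells and less RNA in each cannot be told apart. Since the libraries were made from poly(A) RNA, organelle values cover only the part of organelle RNA that entered them. A change in that part cannot be told apart from a change in transcript level.

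The deposited tables pair no organelle identifier with a gene name. Names were therefore taken from RefSeq where the length of a gene or intron picked out 1 organelle gene, which gave a name to 65 of the 96 genes. The other 31 are called by identifier. At the edge of the choice, ATCG00640 (rpl33) averaged 1.04 RPKM and ATMG00640 (atp4, an ATP synthase subunit) 1.06 RPKM, while ATCG00410 at 0.998 RPKM and ATMG00080 at 0.940 RPKM fell outside it.

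MAC3A (AT1G04510) stood at 8.87, 6.31 and 5.92 RPKM in mac3a mac3b and at 21.98, 16.71 and 20.18 RPKM in Col-0, and MAC3B (AT2G33340) at 8.98, 5.64 and 7.60 RPKM in mac3a mac3b and at 35.40, 36.41 and 48.95 RPKM in Col-0. Both were lower in every mutant library, with limma log2 fold changes of −1.37 for MAC3A (adjusted p = 0.100, and 0.0243 with the replicate block described below) and −2.30 for MAC3B (adjusted p = 0.0377). The 8 nuclear leaf markers examined lay between 431 and 21007 RPKM in every library, and the 10 root, flower and seed markers at or below 1.55 RPKM. The same leaf markers summed to 53010, 40579 and 56204 RPKM in mac3a mac3b and to 54543, 30007 and 20042 RPKM in Col-0, so libraries of 1 genotype differed from each other. Same-numbered libraries of both genotypes deviated together, so each result below is also given with the replicate number as a block where that changes a call. Uniquely placed reads numbered between 80626787 and 108909613 per library over the 13069 genes for which such counts were given.

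As a share of reads, RPKM weighted by gene length, the plastid genes took 0.204%, 0.197% and 0.240% in mac3a mac3b and 0.156%, 0.188% and 0.146% in Col-0. These groups did not overlap (exact permutation test, two-sided, p = 0.1, the smallest that 3 against 3 libraries allow). This share weighs long rRNA rows heavily. The RPKM implied averages of 60763 and 45005 reads per library for the 23S rRNA rows and 25189 for the 16S rRNA row ATCG00920, against 4647 for atpB. The part of rRNA in the separation was not tested. The main measure, the summed level of the plastid genes, was 1970, 1421 and 2071 RPKM in mac3a mac3b and 1733, 1356 and 982 RPKM in Col-0. The mutant was higher in each of the 3 numbered pairs, but the groups overlapped: the mean log2 difference was 0.44 (exact permutation p = 0.2, adjusted over 3 sums 0.2). The mitochondrial genes summed to 27.2, 50.6 and 39.1 RPKM in mac3a mac3b and to 40.5, 144.7 and 176.5 RPKM in Col-0. The mutant was lower in every numbered pair, and the groups overlapped, since Col-0 replicate 1 stood below mac3a mac3b replicate 2. The mean log2 difference was −1.42 (exact permutation p = 0.2, adjusted 0.2), and −2.08 without Col-0 replicate 1.

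The sums were set by few genes. Plastid rRNA genes made up between 39.5% and 61.8% of the plastid sum and tRNA genes between 11.2% and 28.5%. Without both kinds, the 61 protein-coding plastid genes summed to 387, 430 and 375 RPKM in mac3a mac3b and to 593, 435 and 317 RPKM in Col-0, and the difference turned to −0.13 (exact permutation p = 0.7). On the mitochondrial side the 4 short tRNA rows summed to 5.46, 17.04 and 7.72 RPKM in mac3a mac3b and to 18.80, 86.28 and 117.84 RPKM in Col-0, the greater part of the total in Col-0 replicates 2 and 3. As a share of reads the mitochondrial genes took 0.00366%, 0.00531% and 0.00483% in mac3a mac3b and 0.00302%, 0.00725% and 0.00768% in Col-0, with overlap and a log2 difference of −0.28 (exact permutation p = 0.6).

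**Figure D1:**
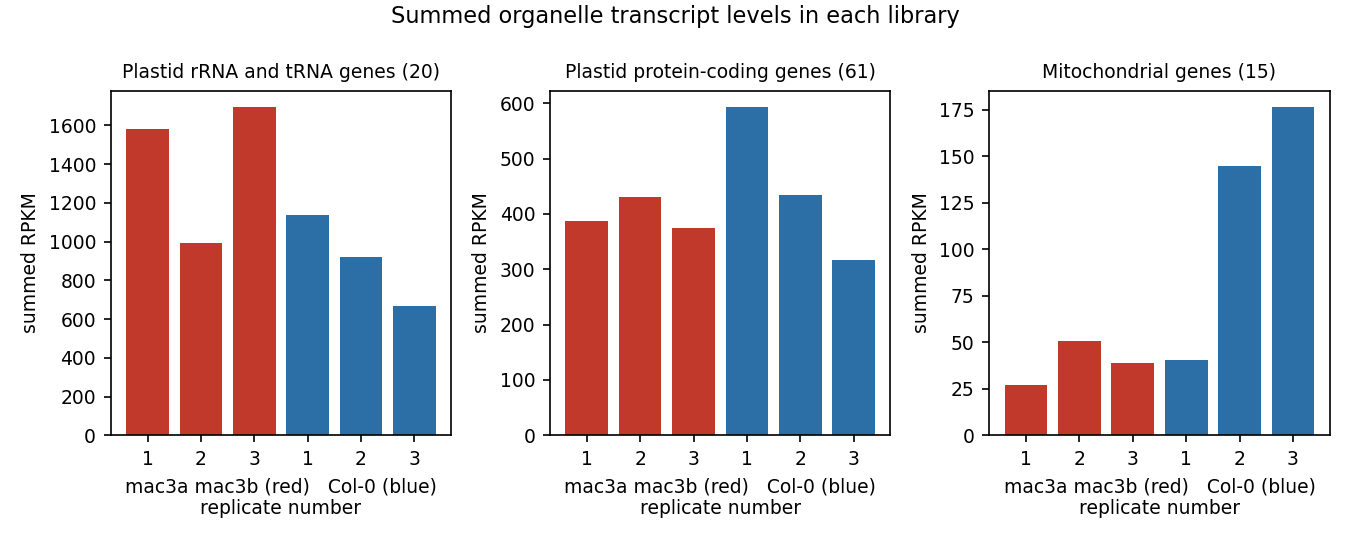
Summed RPKM of plastid rRNA and tRNA genes, plastid protein-coding genes and mitochondrial genes, 1 bar per library, mac3a mac3b in red and Col-0 in blue. The 3 mac3a mac3b libraries lay between 27.2 and 50.6 RPKM for the mitochondrial genes, and Col-0 replicate 1 at 40.5 RPKM lay among them, apart from the other two Col-0 libraries.

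Gene by gene, none of the 96 passed an adjusted p of 0.05 in the limma test on log2(RPKM + 1), adjusted by Benjamini-Hochberg, where 0.105% of the 17163 genes tested did, 0.0524% in each direction. An unadjusted p under 0.05 was reached by 13 members, 4 of them plastid and 9 mitochondrial, beside 11% of all genes tested. With the replicate block, 4.52% of all genes passed, 1.82% of all genes on the low side, and 4 members did. All 4 were mitochondrial and lower in mac3a mac3b. No plastid gene passed, and in this fit 20 members had an unadjusted p under 0.05, beside 24.6% of all genes. The median log2 fold change was 0.01 over the plastid members, −0.92 over the mitochondrial members and 0.01 over all genes tested. Without the genes that share reads with copies, described below, it was −0.07 over 59 plastid and −0.66 over 10 mitochondrial members. The rule itself leans on the mitochondrial value: 8 of the 15 mitochondrial members averaged under 1 RPKM in mac3a mac3b and none did in Col-0, whereas among the 147 mitochondrial rows left out, 80 had a lower mean in the mutant.

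**Figure D2:**
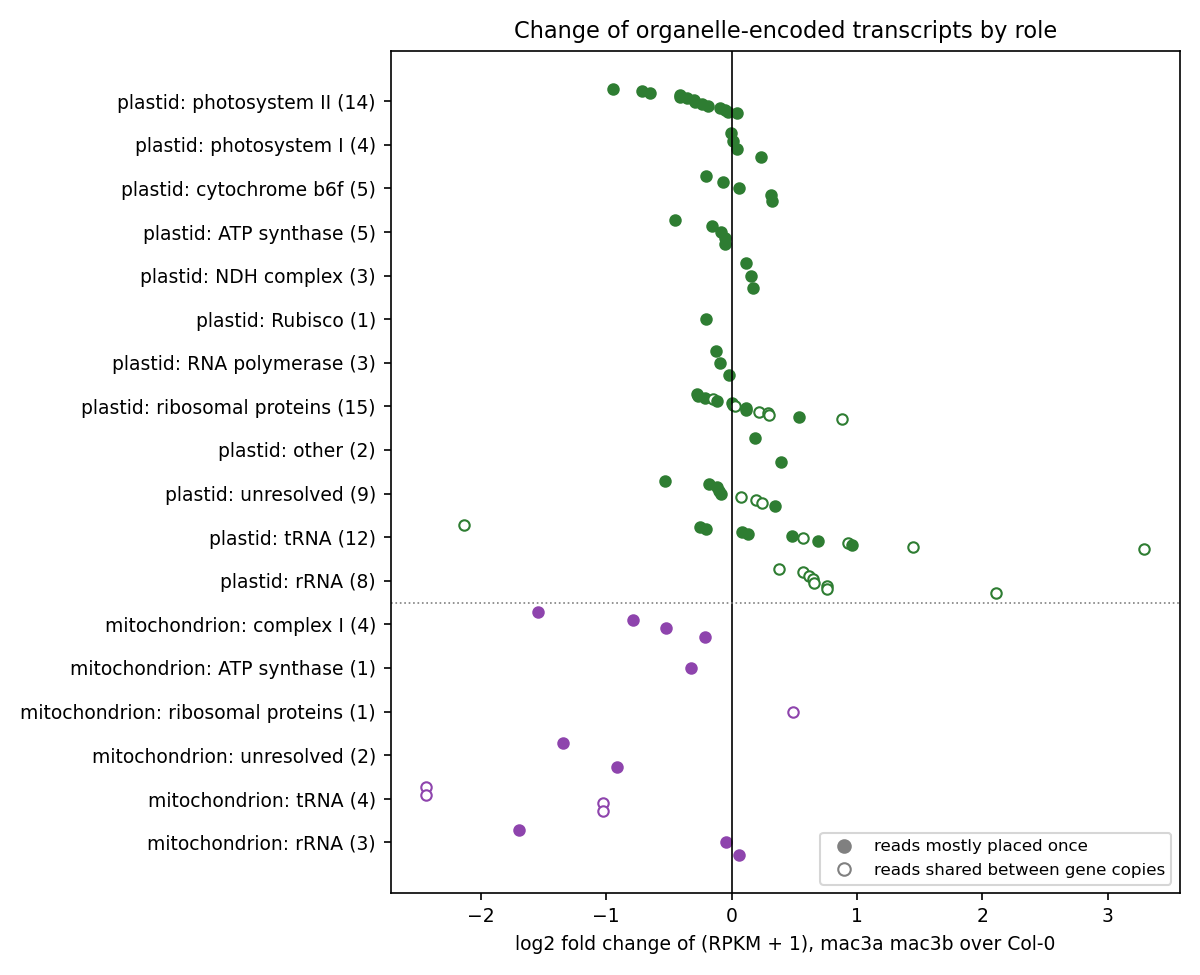
Log2 fold change of RPKM + 1, mac3a mac3b over Col-0, for each of the 96 genes, grouped by genome and role with the number of genes in brackets. Open points are genes whose reads are shared between copies. Filled points lay between −0.95 and 0.96 for plastid genes and between −1.69 and 0.06 for mitochondrial genes. With open points included, the ranges were −2.14 to 3.29 for plastid genes and −2.44 to 0.49 for mitochondrial genes.

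Some members cannot be told from their copies. For each gene, the authors' mean normalised count was set against the number of reads its RPKM implies, taking the median nuclear gene as 100%. This share was at most 7.12% in 27 members and at least 35.8% in the other 69, of which 63 stood at 80% or more. Among 12519 nuclear genes of at least 5 RPKM, 0.248% were under 10%. The 27 are 22 plastid genes, mostly of the inverted repeat, a stretch that the plastid genome carries in opposite orientations, and 5 mitochondrial genes. In the RefSeq plastid genome the 16S, 23S and 4.5S rRNA genes and rpl2, rps7 and rpl23 each have 2 exact copies, so no read inside them can be assigned to 1 copy. The 4.5S rRNA gene, in lower case since both copies are the same throughout, is shown as the shortest of these (Pltd:107599-107701, plus strand, and Pltd:130948-131050, minus strand, TAIR10.1).

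rrn4.5S: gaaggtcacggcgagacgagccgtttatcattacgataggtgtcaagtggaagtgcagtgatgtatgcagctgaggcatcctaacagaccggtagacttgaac

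In the deposited values the lower-numbered row held between 0.03% and 99.9% of the 4.5S pair, depending on the library, but 32.7% to 39.7% of the 16S pair and 50% of the 5S pair throughout. The 4.5S row ATCG01170 was listed at 151.25, 0.04 and 38.00 RPKM in mac3a mac3b and at 69.85, 0.04 and 0.04 RPKM in Col-0, while its twin ATCG00960 was listed at 0.05, 53.30 and 75.98 RPKM in mac3a mac3b and at 0.04, 37.05 and 33.17 RPKM in Col-0. Only mac3a mac3b replicate 3 had more than 0.05 RPKM in both rows. Changes of a single copy are not reported as changes of the gene for this reason. Summed over both copies, the 4.5S rRNA stood at 151.3, 53.3 and 114.0 RPKM in mac3a mac3b and at 69.9, 37.1 and 33.2 RPKM in Col-0, with overlap between the groups. Its log2 fold change was 1.12 (SE 0.46, adjusted p = 0.445). The 23S rRNA, the RNA of the large ribosomal subunit, summed to 401, 369 and 439 RPKM in mac3a mac3b and to 284, 318 and 245 RPKM in Col-0, without overlap (0.52, SE 0.23, adjusted p = 0.479). The 16S rRNA of the small subunit summed to 455, 404 and 713 RPKM in mac3a mac3b and to 319, 403 and 261 RPKM in Col-0, also without overlap (0.65, SE 0.32, adjusted p = 0.531). Of 11 such pairs all 11 had a higher mean log2 value in the mutant, where 49.1% of all genes tested had a lower one. The groups overlapped in 8 pairs, and 3 were higher in every mutant library, beside 9.15% of all genes tested. None passed the threshold with or without the block. Several of these pairs are rRNA or tRNA genes of the same repeat and may not be independent measurements. Their counts are therefore not read against those shares. The 3 libraries with the highest 4.5S sums, mac3a mac3b replicates 1 and 3 and Col-0 replicate 1, also had the highest leaf marker sums, and the part of these in the result was not tested.

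**Figure D3:**
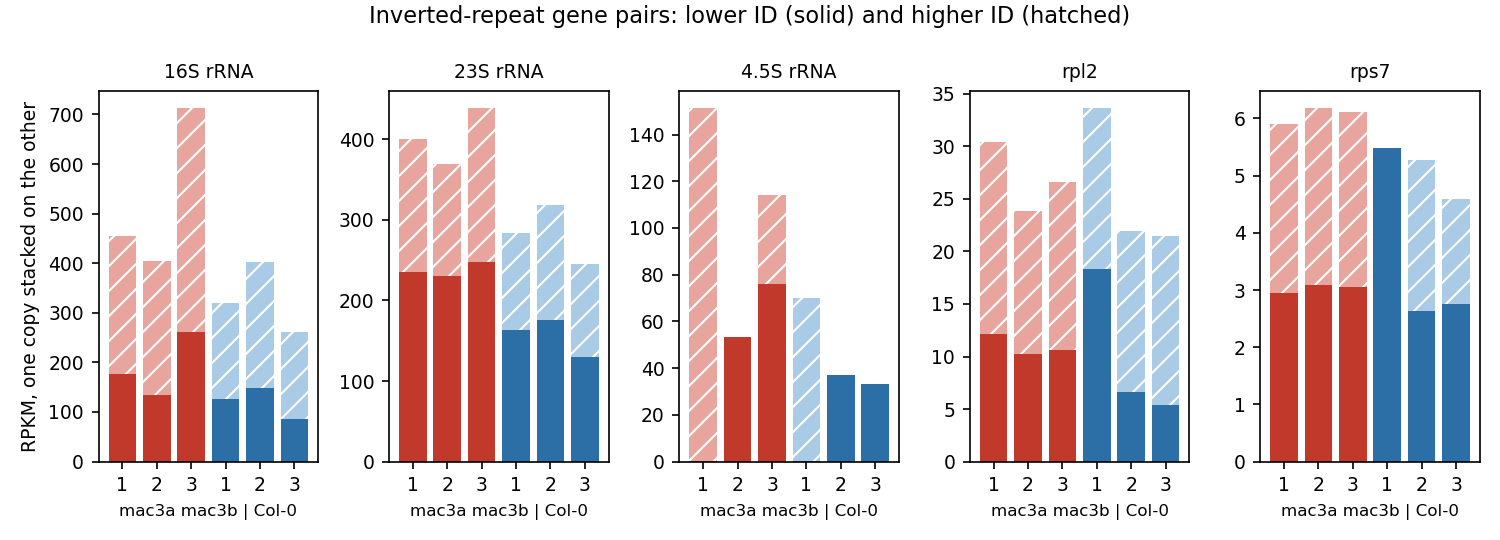
RPKM of 5 gene pairs of the plastid inverted repeat in each library, the row with the lower identifier solid and its twin hatched on top, mac3a mac3b in red left of Col-0 in blue. The summed 23S rRNA lay between 369 and 439 RPKM in mac3a mac3b and between 245 and 318 RPKM in Col-0, and the 4.5S rRNA moved between its 2 rows from library to library.

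Photosystem II, which splits water around the D1 and D2 core proteins, had 14 members. All 14 had reads of their own, 13 had a lower mean log2 value in mac3a mac3b (49.1% of all genes tested did), the median was −0.30, and none passed the threshold. Groups without overlap were seen in 3 of the 14, all in the psbE gene cluster, beside 7.28% of all genes tested. These 3 are close neighbours and may not be independent measurements, so their count is not read against that share. Over all 81 plastid members such genes numbered 4 on the low side, a share below that background. psbE and psbF encode both subunits of cytochrome b559, and psbL and psbJ encode small membrane proteins of the complex. These 4 genes lie in a row on the minus strand at Pltd:63538-64322 (TAIR10.1), 9 bases apart between psbF and psbE, 21 between psbL and psbF and 143 between psbJ and psbL. The coding sequences of the 3 members whose groups did not overlap are shown from first to last codon, both in capitals. They are psbF at Pltd:63942-64061, psbL at Pltd:63804-63920 and psbJ at Pltd:63538-63660, each a single exon.

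psbF: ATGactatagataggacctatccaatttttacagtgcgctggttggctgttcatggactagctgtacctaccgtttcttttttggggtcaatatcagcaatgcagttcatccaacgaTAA
psbL: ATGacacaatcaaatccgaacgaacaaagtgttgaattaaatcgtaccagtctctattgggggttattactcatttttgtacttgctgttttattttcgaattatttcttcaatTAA
psbJ: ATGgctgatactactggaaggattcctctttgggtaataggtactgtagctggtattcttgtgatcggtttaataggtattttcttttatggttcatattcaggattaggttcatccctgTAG

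psbJ (ATCG00550) stood at 12.20, 14.07 and 11.94 RPKM in mac3a mac3b and at 21.67, 19.69 and 20.10 RPKM in Col-0. The groups did not overlap, with means of 12.7 ± 1.16 RPKM in mac3a mac3b and 20.5 ± 1.05 RPKM in Col-0 (SD, n = 3 each), and the log2 fold change was −0.65 (SE 0.15). The adjusted p was 0.209, and 0.0557 with the block. The authors' deposited table lists psbJ at a log2 fold change of −0.72 with an adjusted p of 0.0474, one of 2 members it lists under 0.05 of the 79 for which it gives an adjusted p, beside 4.24% of all genes there.

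psbL (ATCG00560) stood at 3.90, 9.67 and 6.43 RPKM in mac3a mac3b and at 11.23, 11.86 and 9.98 RPKM in Col-0, and psbF (ATCG00570) at 1.42, 2.67 and 1.43 RPKM in mac3a mac3b and at 4.59, 3.43 and 5.27 RPKM in Col-0. Every mutant library was below every Col-0 library for both genes. Their log2 fold changes were −0.72 (SE 0.29, adjusted p = 0.442) and −0.95 (SE 0.24, adjusted p = 0.238). psbE (ATCG00580) overlapped, at 4.08, 6.41 and 4.5 RPKM in mac3a mac3b against 8.02, 5.94 and 5.92 RPKM in Col-0 (−0.36, SE 0.21, adjusted p = 0.618). For psbF, psbL and psbE the authors' count was 37.2%, 53.8% and 71.1% of the reads implied by RPKM, below the 97.7% of psbJ. The cause of this and its effect on their values were not tested.

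Groups without overlap were seen in 4 of the 81 plastid members on the low side, psbJ, psbL, psbF and atpA, and in 3 on the high side, beside 7.28% and 9.15% of all genes tested. They were picked out after their values were seen. The 3 on the high side, ATCG00950 (23S rRNA), ATCG01210 (16S rRNA) and ATCG01240 (rps7, a ribosomal protein), are single copies of inverted-repeat genes. atpA (ATCG00120), the alpha subunit of the chloroplast ATP synthase, stood at 3.71, 5.04 and 5.06 RPKM in mac3a mac3b and at 8.89, 5.87 and 5.44 RPKM in Col-0 (−0.45, SE 0.22, adjusted p = 0.532).

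The remaining photosystem II genes overlapped between the groups. ATCG00020, whose length is that of both psbA (D1) and psbD (D2), stood at 15.47, 27.83 and 16.31 RPKM in mac3a mac3b and at 22.25, 35.30 and 21.95 RPKM in Col-0, a value below its numbered partner in all 3 pairs (−0.41, adjusted p = 0.697, and 0.108 with the block). psbI (ATCG00080), a small subunit and the member of the complex with the highest mean level, stood at 18.64, 26.44 and 17.47 RPKM in mac3a mac3b and at 37.56, 26.26 and 16.67 RPKM in Col-0. Its highest value was in Col-0 replicate 1, the library with the highest sum over plastid protein-coding genes.

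Photosystem I, which passes electrons on to ferredoxin, had overlapping groups in every member. Its 4 members, the core genes psaA and psaB, the small subunit psaJ and the assembly factor ycf3, had log2 fold changes between −0.01 and 0.24. psaJ (ATCG00630), the highest, stood at 11.68, 17.55 and 12.28 RPKM in mac3a mac3b and at 21.96, 15.78 and 7.25 RPKM in Col-0. The 5 members of the cytochrome b6f complex, which links the photosystems, lay between −0.21 (petD, subunit IV) and 0.32 (petN). petD (ATCG00730) stood at 3.33, 5.96 and 4.5 RPKM in mac3a mac3b and at 5.16, 6.91 and 4.24 RPKM in Col-0.

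All 5 ATP synthase genes had negative log2 fold changes, from −0.45 for atpA to −0.05, and the 3 NDH genes positive ones, from 0.11 to 0.17. atpE (ATCG00470), the epsilon subunit, stood at 33.30, 23.68 and 29.91 RPKM in mac3a mac3b and at 51.91, 23.05 and 22.13 RPKM in Col-0. Without Col-0 replicate 1 its sign turned, to 0.33. ndhJ (ATCG00420), of the complex that returns electrons to the photosynthetic chain, stood at 2.38, 2.63 and 2.37 RPKM in mac3a mac3b and at 2.81, 2.14 and 1.74 RPKM in Col-0. rbcL (ATCG00490), the large subunit of Rubisco, stood at 8.32, 14.88 and 13.74 RPKM in mac3a mac3b and at 16.73, 15.23 and 10.66 RPKM in Col-0 (−0.21, SE 0.27, adjusted p = 0.871). The groups overlapped for each of these 3 genes.

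Plastid genes are read by a plastid-encoded polymerase, with nucleus-encoded sigma factors, and by nucleus-encoded phage-type polymerases. Of the genes mainly ascribed to the plastid-encoded enzyme, 8 of 10 were members under their own name, with a median log2 fold change of −0.08 and a range from −0.36 to 0.31. Of those mainly ascribed to the nucleus-encoded enzymes, 4 of 9 were. One of them, rpl23, is a single row of a pair that shares reads, and the other 3, clpP, rpoB and rpoC1, lay between −0.09 and 0.19. In neither list did a gene separate the groups. rpoB (ATCG00190), a catalytic subunit of the plastid-encoded polymerase, stood at 5.28, 3.78 and 4.12 RPKM in mac3a mac3b and at 7.10, 4.82 and 2.97 RPKM in Col-0. clpP (ATCG00670), a protease subunit, stood at 8.78, 7.41 and 8.20 RPKM in mac3a mac3b and at 8.28, 6.09 and 6.81 RPKM in Col-0.

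Of the 15 plastid ribosomal protein rows, 6 share reads, with rpl2 and rps7 listed as both copies. The 9 with reads of their own had log2 fold changes between −0.28 (rpl22) and 0.53 (rpl32). rpl2 (ATCG01310), the highest, shares its reads with ATCG00830. Together both rows stood at 30.4, 23.9 and 26.6 RPKM in mac3a mac3b and at 33.6, 21.9 and 21.4 RPKM in Col-0 (0.09, SE 0.23, adjusted p = 0.950). Of the 12 tRNA rows, 5 share reads, and those carried the widest single-row changes, from −2.14 (ATCG00940) to 3.29 (ATCG00930). The highest tRNA row, ATCG01200, summed with its twin ATCG00930 to 269, 72.4 and 207 RPKM in mac3a mac3b and to 197, 76.6 and 48.7 RPKM in Col-0, with overlap. Another 9 plastid members had no role that length could settle, with log2 fold changes from −0.53 (ATCG00140) to 0.35, and ATCG00140, of the length of atpH and psaC, stood at 5.12, 9.25 and 7.04 RPKM in mac3a mac3b against 12.69, 10.63 and 8.61 RPKM in Col-0.

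The mitochondrial members included 3 rRNA rows. The 2 long rRNA rows lay near 0. ATMG00020 stood at 8.36, 11.20 and 10.46 RPKM in mac3a mac3b and at 7.32, 12.53 and 11.85 RPKM in Col-0, and ATMG01390 at 7.18, 9.31 and 11.34 RPKM in mac3a mac3b and at 5.23, 11.75 and 10.62 RPKM in Col-0. They rested on an average of 2979 and 2006 reads per library, and their log2 fold changes were −0.05 (SE 0.23) and 0.06 (SE 0.31). In both, the lowest library was Col-0 replicate 1.

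The short rRNA row, ATMG01380, 118 bases long, stood at 0.14, 1.09 and 0.54 RPKM in mac3a mac3b and at 1.81, 5.59 and 5.71 RPKM in Col-0. The groups did not overlap, with means of 0.590 ± 0.477 RPKM in mac3a mac3b and 4.37 ± 2.22 RPKM in Col-0 (SD, n = 3 each), and the log2 fold change was −1.69 (SE 0.41, adjusted p = 0.222, and 0.0254 with the block). These values imply 1.51, 15.1 and 6.05 reads in mac3a mac3b and 25.7, 85.9 and 78.1 reads in Col-0. The highest mitochondrial values belonged to an 80-base tRNA listed identically under ATMG09450 and ATMG09730, at 2.62, 7.92 and 3.65 RPKM in mac3a mac3b and at 8.92, 41.42 and 55.44 RPKM in Col-0 (−2.44, SE 0.69, adjusted p = 0.299, and 0.0438 with the block). All its reads are shared between the rows, so this is 1 measurement. With that pair counted once, 3 and not 4 mitochondrial measurements passed with the block.

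Complex I, the NADH dehydrogenase of the respiratory chain, was represented by 4 rows, all with negative log2 fold changes. ATMG00665, the length of a 22-base exon of nad5, stood at 0.74, 2.51 and 2.15 RPKM in mac3a mac3b and at 2.08, 10.99 and 11.96 RPKM in Col-0. Its lowest Col-0 value lay among the mutant values, and the log2 fold change of −1.55 (SE 0.60, adjusted p = 0.416) passed with the block at 0.0443, on an average of 13.3 reads per library. ATMG01120, a row with the intron length of nad1, stood at 0.42, 0.51 and 0.71 RPKM in mac3a mac3b and at 0.98, 1.84 and 2.34 RPKM in Col-0, without overlap (−0.79, SE 0.25, adjusted p = 0.333, and 0.0704 with the block). The other two lay closer to 0, at −0.53 for ATMG00650 and −0.21 for ATMG00516.

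ATMG01370, a 336-base row with no name in the sources used here, stood at 0.18, 0.50 and 0.22 RPKM in mac3a mac3b and at 0.75, 3.98 and 3.08 RPKM in Col-0. It did not overlap between groups (−1.35, SE 0.40, adjusted p = 0.314, and 0.0652 with the block), and the authors' deposited table lists it at a log2 fold change of −2.86 with an adjusted p of 0.00858. These are unlike measures, since 1 RPKM is added before the logarithm in the limma test, which shrinks changes at levels this low. ATMG00660, also unnamed, stood at 1.01, 1.18 and 0.62 RPKM in mac3a mac3b and at 1.14, 3.78 and 3.67 RPKM in Col-0 (−0.92, SE 0.35, adjusted p = 0.410). atp4 (ATMG00640) stood at 0.57, 1.07 and 0.79 RPKM in mac3a mac3b and at 0.61, 1.60 and 1.71 RPKM in Col-0, with overlap. ATMG00980, of the length of rps12, was listed at 1.64, 3.54 and 2.80 RPKM in mac3a mac3b and at 0.01, 3.04 and 3.06 RPKM in Col-0. The authors' count held few of its implied reads (2.20%), as in AT2G07675 (1.81%), a chromosome 2 row of the same length.

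Of the 15 mitochondrial rows, 5 were lower in every mutant library than in every Col-0 library, where 7.28% of all genes tested were. Of these, ATMG01120 and ATMG01370 were picked out after their values were seen. The 5 hold 4 measurements, since ATMG09450 and ATMG09730 are identical, and 3 of them reached the level of 1 RPKM only through Col-0, so the count is not read against that share. In each of these 5, and in ATMG00665 and ATMG00660, the lowest Col-0 value was replicate 1. That library had the highest summed leaf markers of the Col-0 group and the highest plastid protein-coding sum of all 6, and their part in the mitochondrial values was not tested.

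**Figure D4:**
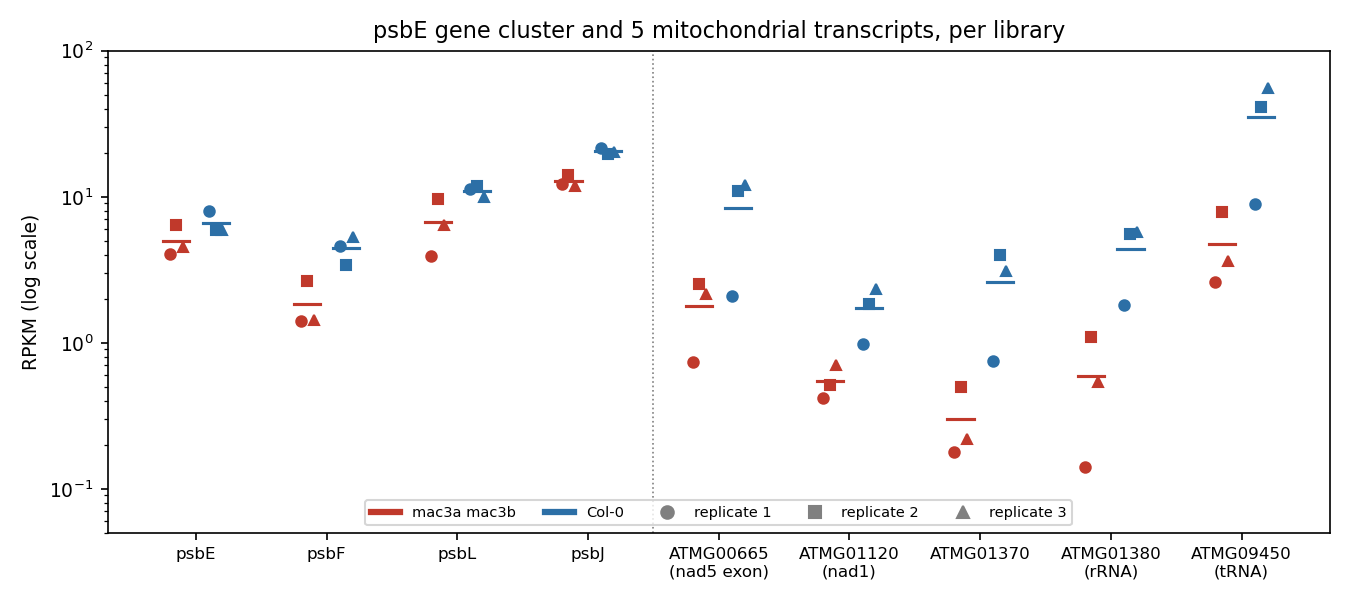
RPKM on a log scale in each library for the 4 genes of the psbE cluster and 5 mitochondrial rows, mac3a mac3b in red left of Col-0 in blue, with symbols for replicate numbers and a line at each mean. The psbJ points lay between 11.9 and 14.1 RPKM in mac3a mac3b and between 19.7 and 21.7 RPKM in Col-0, while in the mitochondrial rows Col-0 replicate 1 lay nearest to the mutant points.

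Arabidopsis carries a copy of mitochondrial DNA in the nucleus, on chromosome 2. Of 151 rows with identifiers from AT2G07660 to AT2G07835, 10 averaged at least 1 RPKM, and in 8 of those the authors' count was under 90% of the reads implied by RPKM. Of these 8, 6 had negative log2 fold changes, beside 49.1% of all genes tested, and 2 passed with the block, both lower, beside 1.82%. Like the mitochondrial rows they were chosen by a mean over both genotypes, so these counts are only a description. The 2 were AT2G07808 (−1.52, adjusted p = 0.130, and 0.0221 with the block) and AT2G07671 (−1.36, adjusted p = 0.333, and 0.0487 with the block). AT2G07671 stood at 0.29, 1.29 and 0.61 RPKM in mac3a mac3b and at 1.33, 4.51 and 5.26 RPKM in Col-0, with Col-0 replicate 1 again nearest to the mutant values. For AT2G07671 the authors' count was 31.6% of the reads implied, so that most may not be assignable to the organelle or to this stretch, whereas for AT2G07808 it was 83.5%.

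Because MAC3A and MAC3B belong to a complex that acts with the spliceosome, introns were also compared. Retention is given as intron depth in percent of intron plus exon depth, and tested as the log2 ratio of intron to exon depth. Over 94773 introns, nearly all nuclear, 62.4% passed the threshold, 62.3% on the high side and 0.0538% on the low side in mac3a mac3b, with a median log2 change of 1.83. The table listed 36 organelle introns, 21 plastid and 15 mitochondrial. Of these, 11 plastid and 4 mitochondrial introns had the depth to be tested, 10 of them in members. None passed in limma, nor with the block, where 61.9% of all introns passed and 0.0528% passed lower. Without the block, the unadjusted p of 1 intron was under 0.05.

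The organelle introns were already well retained in Col-0. Their mean retention in Col-0 started at 2.81%, where that of the median intron in the whole test was 0.267%. Among the 11099 nuclear introns at or above that level, 21.8% passed and the median change was 0.67, and among nuclear introns retained between 10% and 30% in Col-0, 4.84% passed and the median change was 0.30. The background for a count of 0 is therefore lower than the share over all introns. The median change was 0.19 over the 11 plastid introns, 7 of them positive and 4 negative, and −0.56 over the 4 mitochondrial ones, 1 positive and 3 negative. All 4 organelle introns retained below 10% in Col-0 lay below the median of nuclear introns in their range, which for ranges of 1% to 3% and 3% to 10% was 1.46 and 0.93. Above that, 1 of 4 lay over the nuclear median between 10% and 30%, 1 of 3 between 30% and 60% and 2 of 4 between 60% and 100%. The ranges were set after the values were seen, and the difference itself was not tested.

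**Figure D5:**
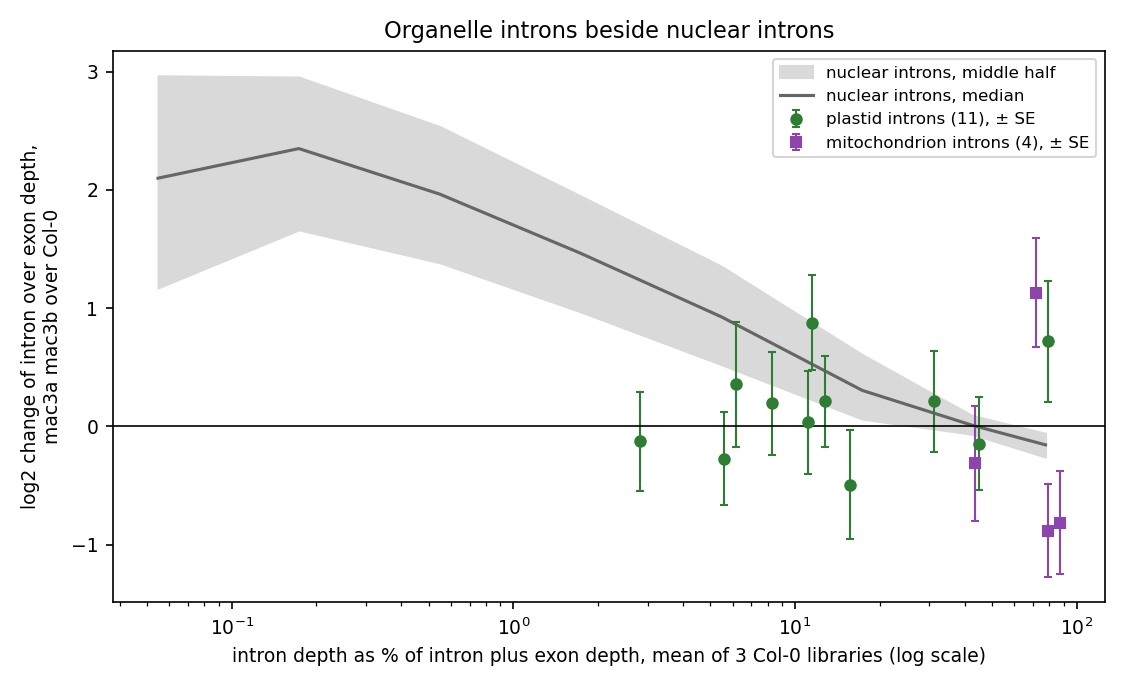
Log2 change of intron over exon depth, mac3a mac3b over Col-0, against Col-0 retention in percent on a log scale, for 11 plastid and 4 mitochondrial introns (points, ± SE) and nuclear introns (grey line, median; band, interquartile range, in ranges of retention). The nuclear medians lie at 2.35 for introns retained between 0.1% and 0.3% and at 0.01 between 30% and 60%, and the last range holds only 9 nuclear introns. The organelle points lay between −0.88 and 1.13.

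Group II introns start with a motif that resembles the nuclear 5′ splice site. The first 30 bases of 5 tested plastid introns are shown with the first 5 in capitals (TAIR10.1): petB at Pltd:74847-74876 and petD at Pltd:76489-76518 on the plus strand, and atpF at Pltd:12624-12653 and clpP at Pltd:71782-71811 and Pltd:70623-70652 on the minus strand.

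petB intron: GTGTGacttgttagaattgaccctatggat
petD intron: GTGTGacttgaactattgatcgggccgtgc
atpF intron: GTGTGagttgttcatttcaagaataggctg
clpP 867-base intron: GTGCGacttgtcagatatatcgggctatat
clpP 515-base intron: TGGCGccaatgagtttttttattttcgaga

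Of the 10 tested plastid introns that could be located, 9 began with GTGNG, read on the strand of the gene, and the exception was the 515-base intron of clpP as RefSeq places its edge. Of 136049 distinct RefSeq introns of the nuclear chromosomes, 7.91% began so. A match is a description of the letters and not of how the intron is spliced.

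The petB intron, in the gene for cytochrome b6, had the largest change of the tested plastid introns. Its retention was 22.6%, 17.9% and 17.7% in mac3a mac3b and 14.2%, 11.05% and 9.29% in Col-0, without overlap (log2 change 0.88, SE 0.40, adjusted p = 0.0863). petB itself (ATCG00720) stood at 3.30, 6.36 and 3.87 RPKM in mac3a mac3b and at 4.56, 5.93 and 3.62 RPKM in Col-0. The neighbouring petD intron was retained at 7.66%, 6.69% and 6.24% in mac3a mac3b and at 10.9%, 4.42% and 3.13% in Col-0, with Col-0 replicate 1 above and the other two below all mutant values (0.35, SE 0.53). The 2 clpP introns were the least retained. The 867-base one stood at 5.06%, 3.80% and 5.07% in mac3a mac3b and at 4.82%, 6.13% and 5.77% in Col-0 (−0.27, SE 0.39). The 515-base one stood at 2.83%, 2.72% and 1.97% in mac3a mac3b and at 3.79%, 2.1% and 2.53% in Col-0 (−0.13, SE 0.42).

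The other tested plastid introns overlapped between the groups. Mean retention was 9.65% in mac3a mac3b and 8.26% in Col-0 for atpF, and 11.7% in mac3a mac3b and 11.1% in Col-0 for rpoC1. It was 14.5% in mac3a mac3b and 12.8% in Col-0 for rpl16 (ATCG00790), and 34.4% in mac3a mac3b and 31.1% in Col-0 for ndhA, whose gene was below the level set for members. For ycf3 (ATCG00360) it was 11.3% in mac3a mac3b and 15.6% in Col-0 (−0.49, SE 0.46). In the tRNA genes, the intron of trnV (ATCG00450) stood at 86.0% in mac3a mac3b and 78.9% in Col-0 (0.72, SE 0.51), and that of ATCG00100 at 42.6% in mac3a mac3b and 45.1% in Col-0. The intron of another tRNA row, ATCG00030, was too shallow for the test. It stood at 16.8%, 14.2% and 15.9% in mac3a mac3b and at 12.5%, 9.64% and 10.5% in Col-0, without overlap. In limma without the depth minimum its log2 change was 0.48 (SE 0.38, adjusted p = 0.303).

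Of the 4 mitochondrial introns tested, 3 had a mean retention above 60% in both genotypes. The intron of ATMG00090, a row of the length of the ribosomal protein gene rps3, stood at 90.1%, 82.5% and 83.1% in mac3a mac3b and at 79.7%, 67.6% and 67.6% in Col-0, without overlap. Its log2 change of 1.13 (SE 0.46) had an adjusted p of 0.0605, of 0.0514 with the block, and passed at 0.0386 without Col-0 replicate 1, at 1.43. The intron of ATMG00160, of the length of cox2, a subunit of cytochrome c oxidase, moved the other way, at 72.8%, 67.2% and 61.9% in mac3a mac3b and 80.3%, 78.6% and 78.6% in Col-0, also without overlap (−0.88, SE 0.39, adjusted p = 0.0792). The intron of ATMG00060 stood at 79.3% in mac3a mac3b and 86.9% in Col-0 (−0.81, SE 0.43), and the fourth intron of ATMG00510, of the length of nad7, another complex I gene, at 38.4% in mac3a mac3b and 43.4% in Col-0 (−0.31, SE 0.49).

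Introns 2 and 3 of the same nad7 row were too shallow for the test. Intron 2 stood at 35.3%, 29.1% and 17.5% in mac3a mac3b and at 80.7%, 48.2% and 78.0% in Col-0, and intron 3 at 17.6%, 23.6% and 16.7% in mac3a mac3b and at 47.0%, 38.5% and 53.0% in Col-0. All mutant values were below all Col-0 values in both. Without the depth minimum both passed on the low side, at −2.44 (SE 0.62, adjusted p = 0.0126) and −1.64 (SE 0.42, adjusted p = 0.0127), beside 55.3% of all introns then tested that passed, and 0.38% that passed lower. Their intron depth was at most 4.08 in the mutant libraries and 4.91 to 12.7 in Col-0.

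Nucleus-encoded genes that serve the organelles were read from the same fit, in 6 lists of 97 genes, of which 96 were tested. None passed in limma without the block, where the unadjusted p was under 0.05 for 2, beside 11% of all genes. Adding the block, it was under 0.05 for 7, beside 24.6%, and 2 passed after adjustment, both higher in the mutant and none lower, beside 2.7% of all genes higher. SIG5, a sigma factor of the plastid-encoded polymerase known to respond to light and stress, stood at 11.08, 28.25 and 97.15 RPKM in mac3a mac3b and at 2.32, 9.0 and 26.08 RPKM in Col-0. It passed the threshold only with the block (1.76, SE 0.98, adjusted p = 0.587, and 0.0156 with the block), and each mutant value was above its partner. Without mac3a mac3b replicate 3 or Col-0 replicate 1 its log2 fold change was 0.96 and 0.99. CYTC2, a cytochrome c of the respiratory chain, stood at 29.74, 31.11 and 39.08 RPKM in mac3a mac3b and at 9.27, 14.30 and 13.01 RPKM in Col-0, without overlap (1.39, SE 0.21, adjusted p = 0.109, and 0.0254 with the block).

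By list, 1 of 9 genes for sigma factors and phage-type polymerases passed with the block, 1 of 18 for mitochondrial complexes, and none of 12 for proteins of the plastid-encoded polymerase, 13 for organelle RNA stability and editing, 16 for organelle intron splicing and 28 for thylakoid complexes. Of the 28 nucleus-encoded thylakoid genes, 24 had positive log2 fold changes and 4 negative ones, beside 49.1% of all genes with a lower mean in the mutant, and the median was 0.31. The Col-0 libraries stood apart from each other here: Col-0 replicate 1 was above every mutant library in 27 of the 28 genes, and Col-0 replicate 3 was the lowest library in all 28. The largest change was PSAH2 of photosystem I at 0.73 (adjusted p = 0.685), which was 1.22 without Col-0 replicate 1 and 0.27 without Col-0 replicate 3. Of the 18 genes for mitochondrial complexes 16 had positive ones, with a median of 0.23. Among the splicing factors the median was 0.03 and the largest change nMAT2, a maturase, at −0.31 (adjusted p = 0.767). CP29A, which binds chloroplast RNA, stood at 414, 150 and 340 RPKM in mac3a mac3b and at 858, 477 and 317 RPKM in Col-0 (−0.87, adjusted p = 0.624). PAP11 of the plastid-encoded polymerase had the largest change of its list, 0.24 (adjusted p = 0.871).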

How the data were processed

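Gene values are RPKM that the authors deposited. They follow unique read counts in the deposited splice-junction table within 1% for at least 97.8% of the genes compared. These were 9967 to 10247 genes per library, all of at least 5 RPKM in it, so rows below that level were not compared. The submitters' processing notes name Trimmomatic, Bowtie2, DESeq2 and TAIR10; the counting tool is not given in the sources used here. Per the file headers, the authors' own table also holds a mean normalised count signal, log2 fold changes, p-values and gene length in kilobases (unit: other). Intron and exon depth is a deposited coverage signal. Genes of at least 1 RPKM on average were tested with limma 3.58.1 (R 4.3.3) on log2(RPKM + 1), introns of at least 10 depth in every library on log2 ratios with 0.5 added, adjusted by Benjamini-Hochberg over all features at 0.05, after a check on simulated data. Sums were compared by exact permutation. Same-numbered libraries correlated in their deviations from the genotype means at 0.62, 0.78 and 0.43, the others from −0.61 to −0.09. Deviations within a genotype cancel out, so the negative values partly follow from the positive ones. The labels give only replicate numbers, so the pairing of libraries is inferred from these same data. Names came from gene and intron lengths in RefSeq (TAIR10.1), not from identifiers as planned, since RefSeq lists organelle genes under other tags; of 65 names, 56 rest on the exact gene length. RefSeq holds another mitochondrial assembly, so no mitochondrial coordinates are given. Members and lists were chosen with earlier results of these data known. Named genes are the 5 highest members of each genome, those past the threshold in either fit, the highest of each role, those with a tested intron, and from the lists those past the threshold and the largest change of each. Members whose groups did not overlap, and ATCG00930, were added after their values were seen. The limit of 10% for shared reads was set after seeing the values. Alternatives covered scaling, filters, pseudocounts, the block and each library left out.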

Additional observations from a re-analysis of the deposited data

How the results depend on the processing

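The pairing of libraries by replicate number was inferred from these data. With the replicate block 4 mitochondrial members passed on the low side and 2 nucleus-encoded list genes on the high side, against 0 of each without it. The count was also 4 with the block after median-ratio scaling and with plastid copies summed, in each case with the identical rows ATMG09450 and ATMG09730 counted apart, and the block changed no other call on a member or organelle intron. The summed plastid difference turned to −0.13 without rRNA and tRNA genes and to −0.16 over genes whose reads are not shared. Over the mitochondrial genes whose reads are not shared, the summed difference was −0.65 (exact permutation p = 0.3). Leaving out 1 library at a time, the difference ranged from −2.08 to −1.02 for the mitochondrial sum, plastid members past the threshold and higher from 0 to 1 (ATCG00930 at 5.14, without mac3a mac3b replicate 2), and mitochondrial introns past the threshold and higher from 0 to 1 (that of ATMG00090, without Col-0 replicate 1). With no minimum depth, 2 mitochondrial introns passed lower. Under scaling to all or to nucleus-encoded genes, ATMG01390 turned to −0.032, rpl2 ATCG01310 to −0.065 and rpl16 to −0.071, and rpl16 stood at −0.0026 under median-ratio scaling, with or without the block. Scaling to all or nucleus-encoded genes moved the median log2 change of all genes by −0.08. Signs also turned when 1 library was left out in expression of ATMG01390 (−0.26 to 0.25), ATMG00020 (−0.27 to 0.081), rps12 (−0.18 to 0.82), atpE (−0.26 to 0.33), ndhJ (−0.00036 to 0.24), rpoB (−0.36 to 0.16), rbcL (−0.39 to 0.031), psaJ (−0.43 to 0.31), rpl2 (−0.072 to 0.12), atpF (−0.35 to 0.13), rpoC1 (−0.25 to 0.18), petB (−0.30 to 0.090) and rpl16 (−0.18 to 0.30). For introns this held for ATCG00100 (−0.26 to 0.038), atpF (−0.13 to 0.37), rpoC1 (−0.29 to 0.24), the 515-base clpP intron (−0.30 to 0.10), petD (−0.00048 to 0.87), ndhA (−0.033 to 0.39) and the fourth of ATMG00510 (−0.70 to 0.075). The cause was not tested in any of these. Mitochondrial rows of few reads, such as the 22-base ATMG00665, are limited by depth.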
